A study of Homo sapiens with 12 samples.

Results

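Transcript levels of 10 genes of the unfolded protein response and the integrated stress response were followed in G401 cells with and without SMARCB1, and with and without the BRD9 degrader dBRD9-A. The genes were chosen by name and matched to the count tables through their unversioned Ensembl identifiers. Of the 57820 gene identifiers in the tables, 10 belong to this set, 1 for each gene, and all 10 were among the 15750 genes tested. They are the sensors EIF2AK3, ERN1 and ATF6, the transcription factors ATF4, DDIT3 and XBP1, and the target genes HSPA5, HERPUD1, DNAJB9 and ASNS.

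The endoplasmic reticulum (ER) folds secreted and membrane proteins, and an overload of unfolded proteins is sensed there by 3 transmembrane proteins, the kinase PERK (gene EIF2AK3), the kinase and RNase IRE1 (gene ERN1) and ATF6. ATF6 is cut to release a transcription factor, IRE1 splices the XBP1 transcript so that it encodes an active factor, and PERK phosphorylates the translation factor eIF2alpha, which lowers general translation while translation of ATF4 rises. Other kinases phosphorylate eIF2alpha when amino acids are short or viral RNA is present, so ATF4 and its targets also form the common output of the integrated stress response. Splicing of XBP1, cleavage of ATF6 and translation of ATF4 are not seen in gene-level counts, which measure only the transcript.

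G401 is a human cell line from a malignant rhabdoid tumour. Its genotype is given as SMARCB1(-/-) in all 4 groups, so the cells lack this core subunit of the SWI/SNF chromatin remodelling complexes unless it is re-expressed. Doxycycline induced either GFP or SMARCB1, and the cells were then held for 24 hours with solvent (DMSO) or with dBRD9-A, which degrades the SWI/SNF subunit BRD9. This gives GFP with DMSO, GFP with dBRD9-A, SMARCB1 with DMSO and SMARCB1 with dBRD9-A, with 3 libraries each. How long doxycycline was given, the dose of dBRD9-A and whether the lines are clones are not given in the sources used here, and nothing states that the 3 libraries of a group are separate cultures, so p-values measure the spread between these libraries, which may be technical.

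The 12 libraries held 34.97 to 58.54 megacounts on genes, a megacount being 1000000 counts. SMARCB1 itself had 0 to 2 counts in the 6 GFP libraries and 53033 to 110893 in the 6 SMARCB1 libraries, which matches the labels, and its level in SMARCB1 cells was lower with dBRD9-A (1310 ± 27 CPM, SD, n = 3) than with DMSO (1880 ± 59.4). The epithelial and mesenchymal genes KRT8, KRT18 and VIM, which rhabdoid cells express, were at 1260 to 2670 CPM, while PTPRC, CD3E and MYOD1 had 0 counts, ALB 0 or 1 and CDH5 0 to 10. CPM are counts per megacount after TMM scaling, which sets libraries to a common level over most genes. In bulk RNA, fewer cells of a type and less RNA per cell cannot be told apart. BRD9 transcript stood at 38.3, 41.1, 46.9 and 47.5 CPM in GFP with DMSO, GFP with dBRD9-A, SMARCB1 with DMSO and SMARCB1 with dBRD9-A, and the BRD9 protein was not measured in these data.

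The promoters of 4 of the genes hold exact copies of motifs known from stress-induced genes, and these are shown as a description of the sequence. The genes that carry them moved in different directions under TMM scaling, and a link between motif and direction was not tested. The windows are those of RefSeq (GRCh38.p14), from 250 bases before to 50 bases after each gene start. All 10 genes had at least 1, with 14 windows in total and 2 each for ATF4, DDIT3, XBP1 and ASNS. All matches lay in window 1 of their gene, and positions are given from its start. ERSE, bound by ATF6 and XBP1 together with NF-Y, was searched as CCAAT and CCACG 9 bases apart, ERSE-II as ATTGG and CCACG 1 base apart, the XBP1 element UPRE as TGACGTGG or TGACGTGA, and the ATF4 and C/EBP composite element CARE as TGATGNAA, each on both strands. The stretches below run 5′ to 3′ on the gene's strand, with 20 bases on either side of the matches and the matched letters in capitals. HSPA5 is at chr9:125241371-125241429 (minus strand), XBP1 at chr22:28800583-28800641 (minus), HERPUD1 at chr16:56931946-56932055 (plus, with CARE on the opposite strand and ERSE-II after it) and ASNS at chr7:97872449-97872496 (minus).
HSPA5: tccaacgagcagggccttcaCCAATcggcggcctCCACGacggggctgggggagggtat
XBP1: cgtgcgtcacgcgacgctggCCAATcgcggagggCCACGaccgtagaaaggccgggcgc
HERPUD1: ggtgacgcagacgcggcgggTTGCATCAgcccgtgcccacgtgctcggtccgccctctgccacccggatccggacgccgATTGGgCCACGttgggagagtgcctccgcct
ASNS: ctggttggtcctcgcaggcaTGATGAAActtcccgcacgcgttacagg

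ERSE was present in 0.0769% of all 35116 windows, ERSE-II in 0.0541%, UPRE in 1.18% and CARE in 3.62%. The ERSE of HSPA5 lies at bases -66 to -48 from the gene start and that of XBP1 at -52 to -34, the CARE of ASNS at -68 to -61, and the CARE and ERSE-II of HERPUD1 at -176 to -169 and -117 to -107. None of the matches overlap each other. ATF4, DDIT3, ATF6, ERN1, EIF2AK3 and DNAJB9 had no exact match to these letters in any of their windows, which says nothing of sites with other letters or elsewhere. A match is a description of the sequence, not a measured binding site.

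**Figure D1:**
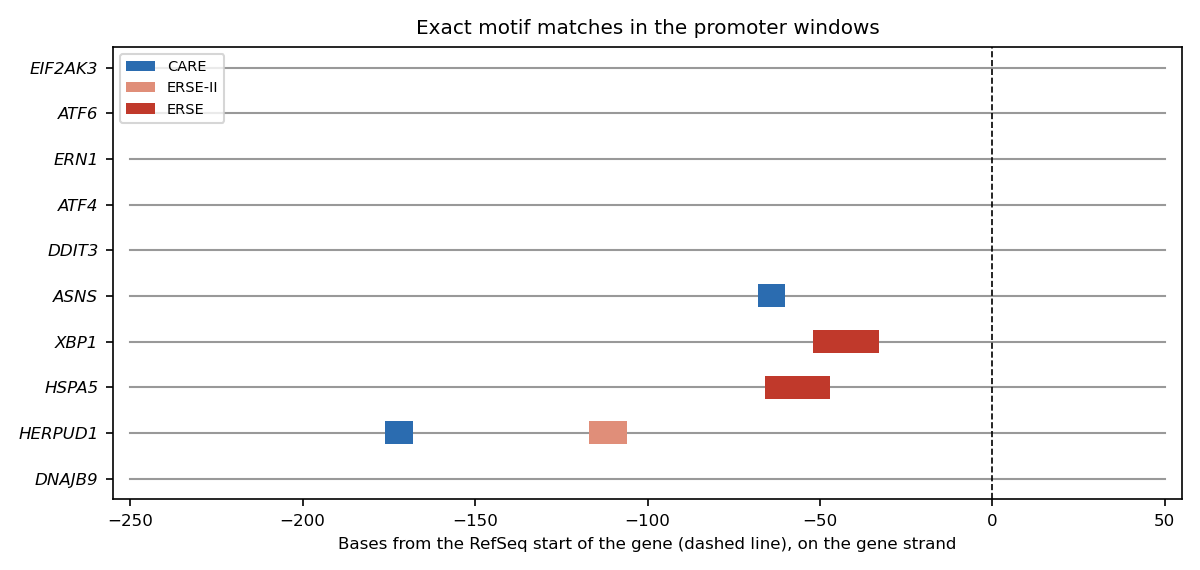
Exact motif matches in promoter window 1 of each of the 10 genes, by position in bases from the RefSeq start of that window (x axis, dashed line at the start). HSPA5 and XBP1 carry ERSE, HERPUD1 carries CARE and ERSE-II, ASNS carries CARE, and 6 genes carry no match.

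With SMARCB1 the set split in 2 directions. Under TMM scaling in DMSO, the sensors EIF2AK3 and ATF6 rose to 1.75 and 1.5 times their level in GFP cells and HSPA5 and XBP1 rose by less, while ASNS fell 1.9-fold, ATF4 and DDIT3 fell 1.48-fold each and HERPUD1 fell 1.13-fold. In total 8 of the 10 genes passed the test, 4 higher and 4 lower, and ERN1 and DNAJB9 did not. SMARCB1 changed many genes, and of all genes tested 65% were called, 33.5% higher and 31.6% lower, so the number of calls in the set is close to the background. With a fold change of at least 1.5 as well, ATF6, EIF2AK3 and ASNS passed, against 24.4% of all genes tested. The libraries of the compared groups did not overlap for 9 of the 10 genes, ERN1 being the exception, against 68.7% of all genes tested.

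The same comparison in cells treated with dBRD9-A is between other libraries, fitted in one model with those in DMSO and so with a shared estimate of the spread. It gave 9 calls of 10, 5 higher and 4 lower. DNAJB9 was called higher there in addition to EIF2AK3, ATF6, HSPA5 and XBP1 (under spike-in scaling HSPA5 and XBP1 were called lower and DNAJB9 was not called, with a log2 fold change of -0.1), and ASNS, ATF4, DDIT3 and HERPUD1 were called lower. Of all genes tested, 63.3% were called in this comparison, 33% higher and 30.4% lower. ASNS, ATF4, ATF6 and EIF2AK3 also passed the 1.5-fold limit, against 23.8% of all genes. The groups did not overlap for 9 of the 10, ERN1 again being the exception, against 66.2% of all genes. Leaving out any 1 of the 12 libraries left the counts at 8 and 9.

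**Figure D2:**
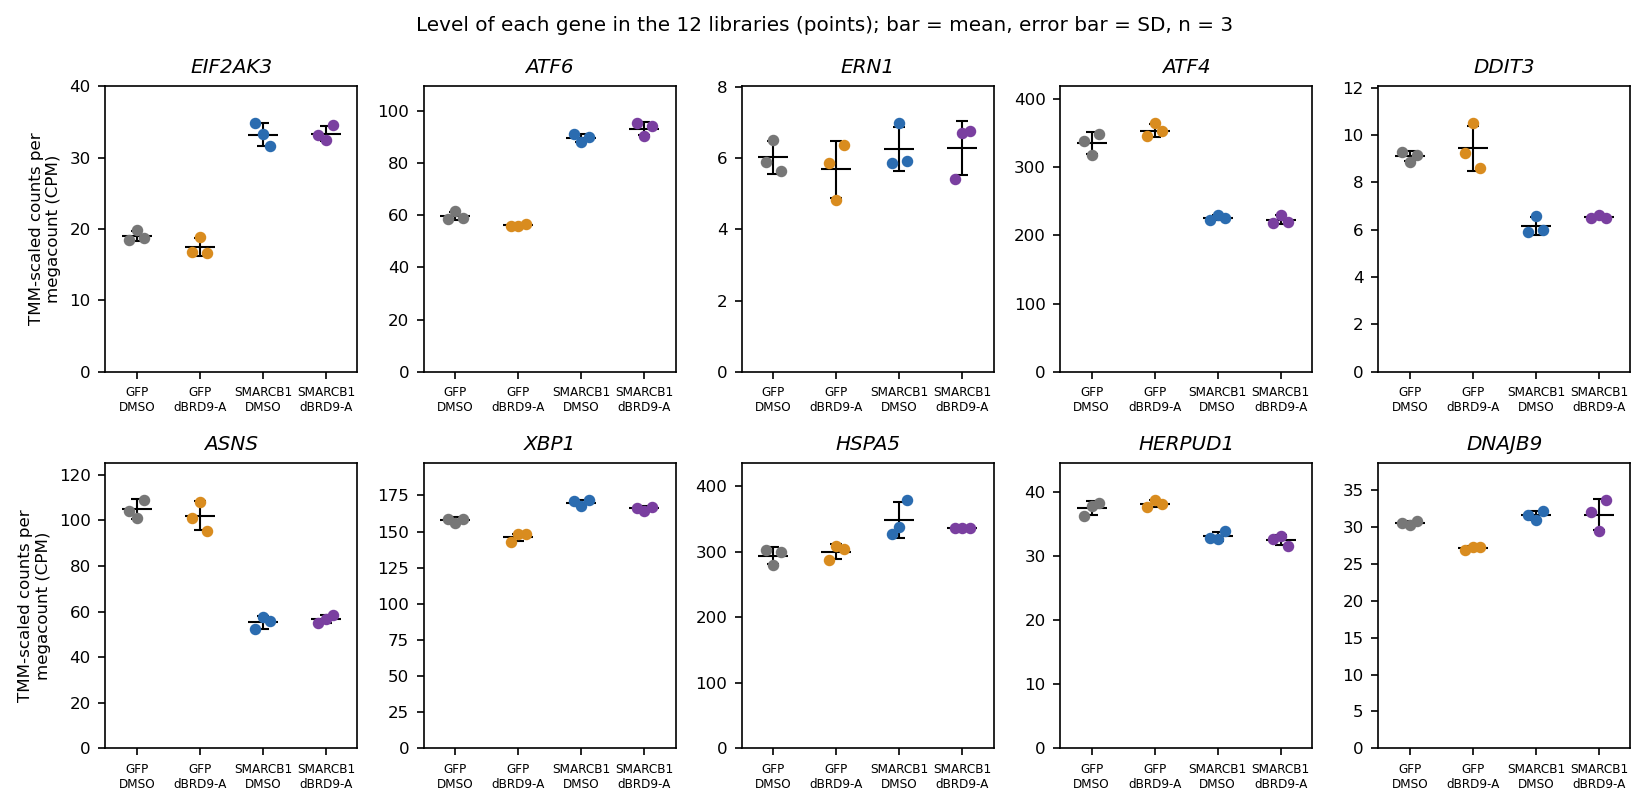
TMM-scaled counts per megacount (y axis, from 0) of the 10 genes in the 12 libraries (points, 3 per group), with the mean (bar) and SD (error bar). EIF2AK3 and ATF6 are higher in all 6 SMARCB1 libraries than in any GFP library, and ATF4, DDIT3, ASNS and HERPUD1 are lower.

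Among the sensors, EIF2AK3, the gene of PERK, was at 18.4, 19.8 and 18.7 CPM in GFP with DMSO and 34.8, 33.3 and 31.6 in SMARCB1 with DMSO. It was at 16.8, 18.9 and 16.7 in GFP with dBRD9-A and 33.1, 32.4 and 34.5 in SMARCB1 with dBRD9-A. Every SMARCB1 library was above every GFP library, whatever the treatment. On the log2 scale EIF2AK3 changed by 0.81 ± 0.05 (SE; edgeR adjusted p = 2.32e-10) in DMSO and 0.93 ± 0.05 (edgeR adjusted p = 6.09e-11) with dBRD9-A. Only 18.8% of all genes tested had a larger fold change in either direction in DMSO.

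ATF6 was at 58.6, 61.5 and 58.9 CPM in GFP with DMSO and at 91.1, 88 and 89.8 in SMARCB1 with DMSO. With dBRD9-A it was at 55.8, 55.8 and 56.7 in GFP cells and 95.2, 90.2 and 94.3 in SMARCB1 cells. The GFP and SMARCB1 libraries were again fully apart, and the replicates of this gene differed little, by -0.05 to 0.04 on the log2 scale around their group means. This is a log2 fold change of 0.59 ± 0.03 (edgeR adjusted p = 1.36e-11) in DMSO and 0.73 ± 0.03 (edgeR adjusted p = 8.34e-13) with dBRD9-A.

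ERN1, the gene of IRE1, had a mean of 275.3 counts per library and the widest spread between replicates in the set, -0.21 to 0.16 on the log2 scale around the group means. Its group means were 6.02 ± 0.451, 5.69 ± 0.797, 6.26 ± 0.626 and 6.29 ± 0.753 CPM (SD, n = 3) in GFP with DMSO, GFP with dBRD9-A, SMARCB1 with DMSO and SMARCB1 with dBRD9-A. All 4 groups overlapped. For SMARCB1 the log2 fold change was 0.06 (95% interval -0.17 to 0.29, edgeR adjusted p = 0.661) in DMSO and 0.15 (-0.09 to 0.39, edgeR adjusted p = 0.266) with dBRD9-A. Under TMM scaling, these intervals leave room for changes of the size seen in HSPA5, but not for those of EIF2AK3 or ATF6.

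Of the transcription factors, ATF4, the common effector of the integrated stress response, was at 338, 317 and 348 CPM in GFP with DMSO and 223, 230 and 225 in SMARCB1 with DMSO. In dBRD9-A the values were 345, 364 and 352 against 218, 230 and 220. Every SMARCB1 library was below every GFP library. The log2 fold change was -0.57 ± 0.03 (edgeR adjusted p = 1.1e-10) in DMSO and -0.67 ± 0.03 (edgeR adjusted p = 1.29e-11) with dBRD9-A. Transcripts of ATF4 pseudogenes, which resemble the ATF4 transcript closely, had at most 77 counts in a library, against a mean of 12890 for ATF4.

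DDIT3 encodes CHOP, a transcription factor that ATF4 induces and that promotes cell death when stress persists. It was at 9.29, 8.87 and 9.18 CPM in GFP with DMSO and 5.89, 6.6 and 6 in SMARCB1 with DMSO. With dBRD9-A it was at 9.26, 10.5 and 8.61 in GFP cells and 6.49, 6.62 and 6.49 in SMARCB1 cells, so GFP and SMARCB1 libraries did not overlap under either treatment. The log2 fold change was -0.57 ± 0.08 (edgeR adjusted p = 3.29e-06) in DMSO and -0.53 ± 0.08 (edgeR adjusted p = 8.98e-06) with dBRD9-A. In GENCODE release 29 the exons of DDIT3 overlap those of MARS (now MARS1) and MBD6 on the opposite strand and of AC022506.1 on the same strand, and whether the counting used strand is not given in the sources used here, so reads of these genes may be shared. MARS1 had a mean of 11570 counts per library against 354.4 for DDIT3. It was also lower with SMARCB1, at a log2 fold change of -0.31 in DMSO and -0.24 with dBRD9-A. Its part in the DDIT3 values was not tested.

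XBP1, whose spliced form drives ER expansion and protein degradation genes, was at 159, 156 and 159 CPM in GFP with DMSO and 171, 168 and 172 in SMARCB1 with DMSO. In cells with dBRD9-A it was at 143, 148 and 148 with GFP and 166, 164 and 167 with SMARCB1. The differences were small but larger than the spread between libraries, with no overlap. XBP1 had a log2 fold change of 0.1 ± 0.02 (edgeR adjusted p = 0.00127) in DMSO and 0.18 ± 0.03 (edgeR adjusted p = 6.15e-06) with dBRD9-A, and 78.5% of all genes tested had a larger one in DMSO.

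ASNS, asparagine synthetase, a target of ATF4 in amino acid shortage that carries the CARE shown above, had the largest fall of the set. It was at 104, 101 and 109 CPM in GFP with DMSO and 52.2, 57.5 and 56 in SMARCB1 with DMSO. With dBRD9-A the GFP libraries were at 101, 108 and 95.5 and the SMARCB1 libraries at 54.8, 56.8 and 58.4. No SMARCB1 library came near a GFP library. For ASNS the log2 fold change was -0.92 ± 0.05 (edgeR adjusted p = 6.43e-12) in DMSO and -0.84 ± 0.05 (edgeR adjusted p = 2.9e-11) with dBRD9-A. In DMSO, 16.2% of all genes tested had a larger change than ASNS.

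HSPA5, the ER chaperone BiP that binds the 3 sensors and carries an ERSE, was at 303, 279 and 299 CPM in GFP with DMSO and 327, 338 and 379 in SMARCB1 with DMSO. In dBRD9-A it was at 287, 308 and 304 with GFP and 336, 336 and 336 with SMARCB1. The groups did not overlap, but the gap between them was narrow, and SMARCB1 replicate 3 in DMSO stood above the other two. HSPA5 had a log2 fold change of 0.25 ± 0.05 (edgeR adjusted p = 0.000121) in DMSO and 0.17 ± 0.05 (edgeR adjusted p = 0.00402) with dBRD9-A, and leaving out single libraries gave 0.18 to 0.29 in DMSO.

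HERPUD1, an ER membrane protein that takes part in ER-associated degradation, moved the other way. It was at 36.3, 37.9 and 38.3 CPM in GFP with DMSO and 32.8, 32.6 and 33.9 in SMARCB1 with DMSO, and at 37.6, 38.8 and 38.2 against 32.7, 33.2 and 31.6 with dBRD9-A. GFP and SMARCB1 libraries did not overlap. HERPUD1 had a log2 fold change of -0.18 ± 0.04 (edgeR adjusted p = 0.000346) in DMSO and -0.23 ± 0.04 (edgeR adjusted p = 2.98e-05) with dBRD9-A. Its promoter has both an ATF4-type and an ATF6/XBP1-type motif, as printed above.

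DNAJB9, a co-chaperone of BiP in the ER lumen and a target of spliced XBP1, was at 30.6, 30.3 and 30.8 CPM in GFP with DMSO and 31.7, 30.9 and 32.2 in SMARCB1 with DMSO. The difference did not pass the test (log2 fold change 0.05, 95% interval -0.04 to 0.14, edgeR adjusted p = 0.355). With dBRD9-A the GFP libraries were at 26.9, 27.3 and 27.3 and the SMARCB1 libraries at 32, 29.4 and 33.7, a log2 fold change of 0.22 ± 0.05 (edgeR adjusted p = 0.000385). The GFP libraries with dBRD9-A were the lowest 3 of the 12. In GENCODE release 29 DNAJB9 shares exon bases with PNPLA8 and THAP5 on the opposite strand, EIF2AK3 with 2 antisense genes, and ASNS with AC079781.5 on the same strand.

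**Figure D3:**
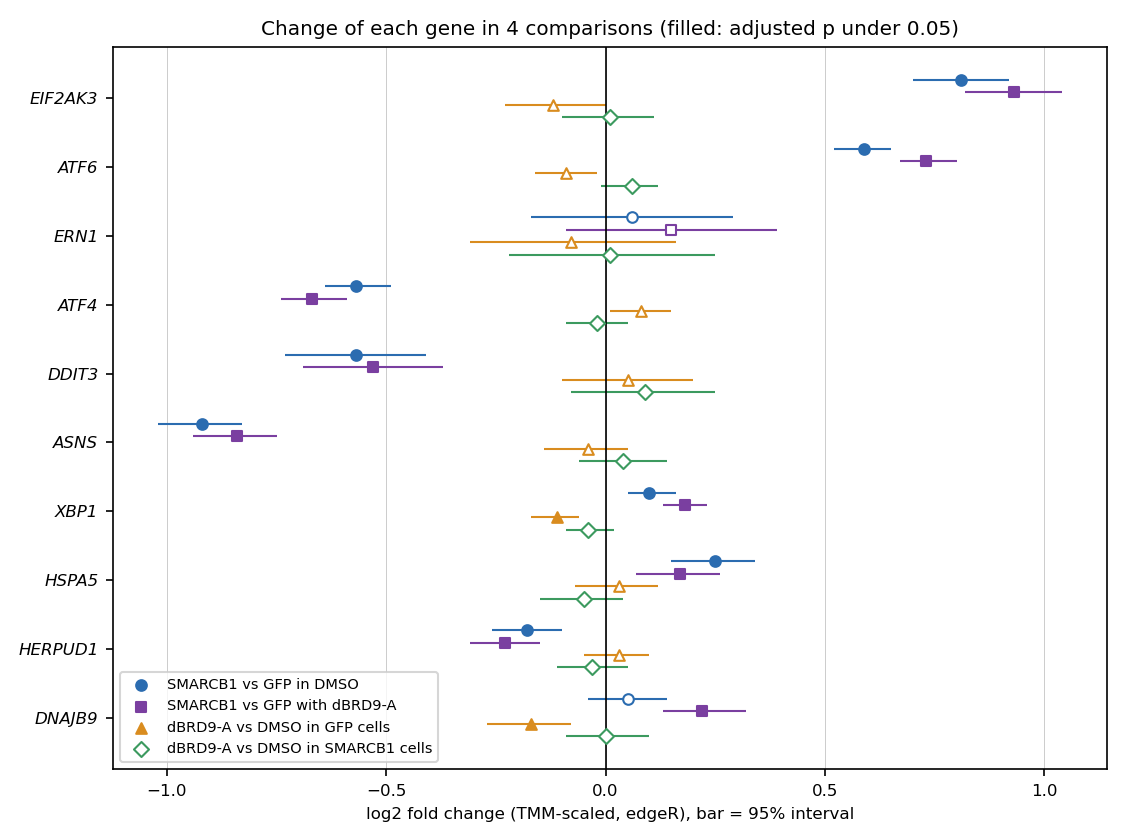
Log2 fold change (x axis, edgeR on TMM-scaled counts) of each gene in 4 comparisons, with the 95% interval (bars) and filled symbols where the adjusted p is under 0.05. The SMARCB1 comparisons reach from -0.92 (ASNS) to 0.93 (EIF2AK3), and the dBRD9-A comparisons stay between -0.17 and 0.09.

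dBRD9-A changed these genes little under TMM scaling, whereas spike-in scaling, described last, moved most genes up in GFP cells and all 10 with them. In GFP cells, XBP1 and DNAJB9 were called lower and none higher, so 2 of 10 passed where 15.9% of all genes did, 7.43% higher and 8.47% lower. XBP1 went from 158 ± 1.74 to 146 ± 2.65 CPM (SD, n = 3; log2 fold change -0.11 ± 0.03, edgeR adjusted p = 0.00467) and DNAJB9 from 30.6 ± 0.221 to 27.2 ± 0.206 (-0.17 ± 0.05, edgeR adjusted p = 0.015). The groups did not overlap for these and for ATF6, 3 of the 10, against 34% of all genes. The DNAJB9 call was lost without GFP replicate 3 in DMSO (edgeR adjusted p = 0.0559) or GFP replicate 1 with dBRD9-A (0.0599).

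ATF6 in the GFP cells was at 55.8 to 56.7 CPM with dBRD9-A and 58.6 to 61.5 with DMSO, but missed the threshold (log2 fold change -0.09, edgeR adjusted p = 0.0695). ATF4 had a log2 fold change of 0.08 (edgeR adjusted p = 0.138) with overlapping libraries, and EIF2AK3 one of -0.12 (0.188). Under TMM scaling, the 95% intervals over the 10 genes ran from -0.31 to 0.2. A change in the GFP cells of the size that SMARCB1 gave in ASNS, ATF4, EIF2AK3 or ATF6 lies outside them. The intervals do not cover the choice of scaling, and spike-in scaling put ATF4 at 0.44 in this comparison.

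In SMARCB1 cells, dBRD9-A gave 0 calls of 10 in edgeR, 0 at an unadjusted p under 0.05 and 0 in DESeq2, where 1.93% of all genes tested were called in edgeR. The largest log2 fold change was 0.09, for DDIT3, and the intervals of the 10 genes ran from -0.22 to 0.25. XBP1 was the 1 gene of the 10 whose libraries did not overlap, against 16.9% of all genes, at 164 to 167 CPM with dBRD9-A and 168 to 172 with DMSO, without passing the test (edgeR adjusted p = 0.592).

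Whether the response to dBRD9-A differed between SMARCB1 and GFP cells was tested as an interaction. In SMARCB1 cells the SMARCB1 transcript itself fell with dBRD9-A, from 1880 to 1310 CPM, and its part in such differences was not tested. Without spike-in scaling, the interaction was called for 0 of the 10 genes in edgeR and 0 in DESeq2, and for 3.8% of all genes tested in edgeR. At an unadjusted p under 0.05 in edgeR there were 3, ATF6, XBP1 and DNAJB9, all positive. Spike-in scaling, described last, called all 10 lower, with these 3 at -0.35, -0.42 and -0.32, beside a median of -0.49 over all genes. Under TMM scaling the difference was 0.15 ± 0.04 for ATF6 (edgeR adjusted p = 0.0833) and 0.17 ± 0.06 for DNAJB9 (edgeR adjusted p = 0.171). Without SMARCB1 replicate 2 with dBRD9-A both were called, at 0.17 (edgeR adjusted p = 0.0325) and 0.22 (0.0232). DNAJB9 stood at 29.4 CPM in that library and at 32 and 33.7 in the others of its group.

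To see how far other genes of these pathways moved with the set, 105 further genes in 7 lists were read from the same fit, of which 103 were tested. DERL3 had 0 counts and CREB3L3 at most 1. In DMSO, 45 of the 103 were higher with SMARCB1 and 36 lower, and with dBRD9-A 46 were higher and 35 lower. Spike-in scaling, described last, gave 54 higher and 16 lower in DMSO but 14 higher and 67 lower with dBRD9-A. Of all tested genes 33.5% were called higher and 31.6% lower in DMSO, and 33% and 30.4% with dBRD9-A, and the counts of each list stand beside these shares. The lists are described by counts and medians, beside medians over all tested genes of 0 in DMSO and 0.01 with dBRD9-A.

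ATF4 targets of protein synthesis were mostly lower under TMM scaling, and a link to the level of ATF4 was not tested. Of 13 aminoacyl-tRNA synthetase and tRNA export genes, 11 were lower with SMARCB1 in DMSO and 0 higher, with a median log2 fold change of -0.3 and a range of -0.47 to -0.01. With dBRD9-A 10 were lower and 1 higher, with a median of -0.19. Spike-in scaling gave 5 lower and 1 higher in DMSO, and 13 lower and 0 higher with dBRD9-A. YARS1, the tyrosine enzyme, fell from 319 ± 9.36 to 230 ± 2.52 CPM in DMSO (SD, n = 3; log2 fold change -0.47 ± 0.03, edgeR adjusted p = 9.51e-11). NARS1, which charges tRNA with the asparagine that ASNS makes, fell from 546 ± 16.9 to 406 ± 7.84 CPM with dBRD9-A (-0.43 ± 0.03, edgeR adjusted p = 2.21e-10). The gene called higher with dBRD9-A was WARS1, at 0.12 ± 0.03, and TARS1, named after its values were seen, passed neither test.

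ATF4 targets of amino acid synthesis and transport were called in both directions. Of 20, 6 were higher and 9 lower in DMSO (median -0.09), and 7 higher and 10 lower with dBRD9-A (median -0.02), where spike-in scaling gave 8 higher and 3 lower, and 2 higher and 13 lower. The neutral amino acid transporter SLC1A4 rose from 4.08 ± 0.24 to 11.2 ± 0.0457 CPM in DMSO (1.45 ± 0.08, edgeR adjusted p = 1.26e-11), and the glycine transporter SLC6A9 fell from 4.68 ± 0.405 to 1.77 ± 0.179 (-1.39 ± 0.12, edgeR adjusted p = 1e-08). Among 16 stress regulators downstream of ATF4 and CHOP, 8 were higher and 5 lower under both treatments, and under spike-in scaling 8 higher and 4 lower in DMSO but 4 higher and 9 lower with dBRD9-A. DDIT4, an inhibitor of mTORC1 signalling, fell from 123 ± 6.15 to 41.8 ± 1.93 CPM in DMSO (-1.55 ± 0.04, edgeR adjusted p = 7.51e-16). VLDLR, a lipoprotein receptor gene, had 1 count in each GFP library with DMSO and 166, 189 and 260 in the SMARCB1 libraries with DMSO, and 0 against 175, 242 and 203 with dBRD9-A.

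Genes that act inside the ER were more often higher with SMARCB1 than lower. Of 18 ER chaperones and folding enzymes, 11 were higher and 1 lower in DMSO (median 0.1, range -0.32 to 0.47), and 13 higher and 1 lower with dBRD9-A (median 0.14), where spike-in scaling gave 0 higher and 10 lower. None reached 1.5-fold. The disulfide-forming oxidase ERO1B was the largest rise (0.47 ± 0.07, edgeR adjusted p = 5.56e-06 in DMSO) and CRELD2 the fall (-0.32 ± 0.04, edgeR adjusted p = 1.96e-06). Of 15 tested genes of ER-associated degradation, 11 were higher and 2 lower in DMSO (median 0.16), and 10 higher and 3 lower with dBRD9-A (median 0.15), where spike-in scaling gave 5 higher and 8 lower. UBE2J1, a ubiquitin-conjugating enzyme of the ER membrane, rose from 96.2 ± 2.85 to 249 ± 4.06 CPM in DMSO, and EDEM2, which trims mannose from misfolded glycoproteins, fell from 78.9 ± 2.64 to 32.2 ± 0.469.

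The regulators of eIF2 changed by small amounts under TMM scaling. Of 12 eIF2alpha kinase, phosphatase, eIF2alpha and eIF2B genes, 4 were higher and 5 lower in DMSO (median -0.06, range -0.25 to 0.21), and 4 were higher and 4 lower with dBRD9-A (median -0.02). Spike-in scaling gave 4 higher and 0 lower in DMSO, and 0 higher and 9 lower with dBRD9-A. The viral RNA sensor EIF2AK2 was the largest rise in DMSO (0.21 ± 0.05, edgeR adjusted p = 0.00111) and EIF2S1, eIF2alpha itself, the largest fall (-0.25 ± 0.03, edgeR adjusted p = 7.84e-07). EIF2AK3, at 0.81 in DMSO, lay above the range of this list. Of 11 tested genes of other ER-membrane stress transducers and their partners, 7 were higher and 3 lower in DMSO, with CREB3L2 at 0.74 ± 0.07 and CREB3L1 at -0.81 ± 0.14. With dBRD9-A 5 of this list were higher and 2 lower. Spike-in scaling gave 7 higher and 2 lower in DMSO, but 3 higher and 5 lower with dBRD9-A.

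**Figure D4:**
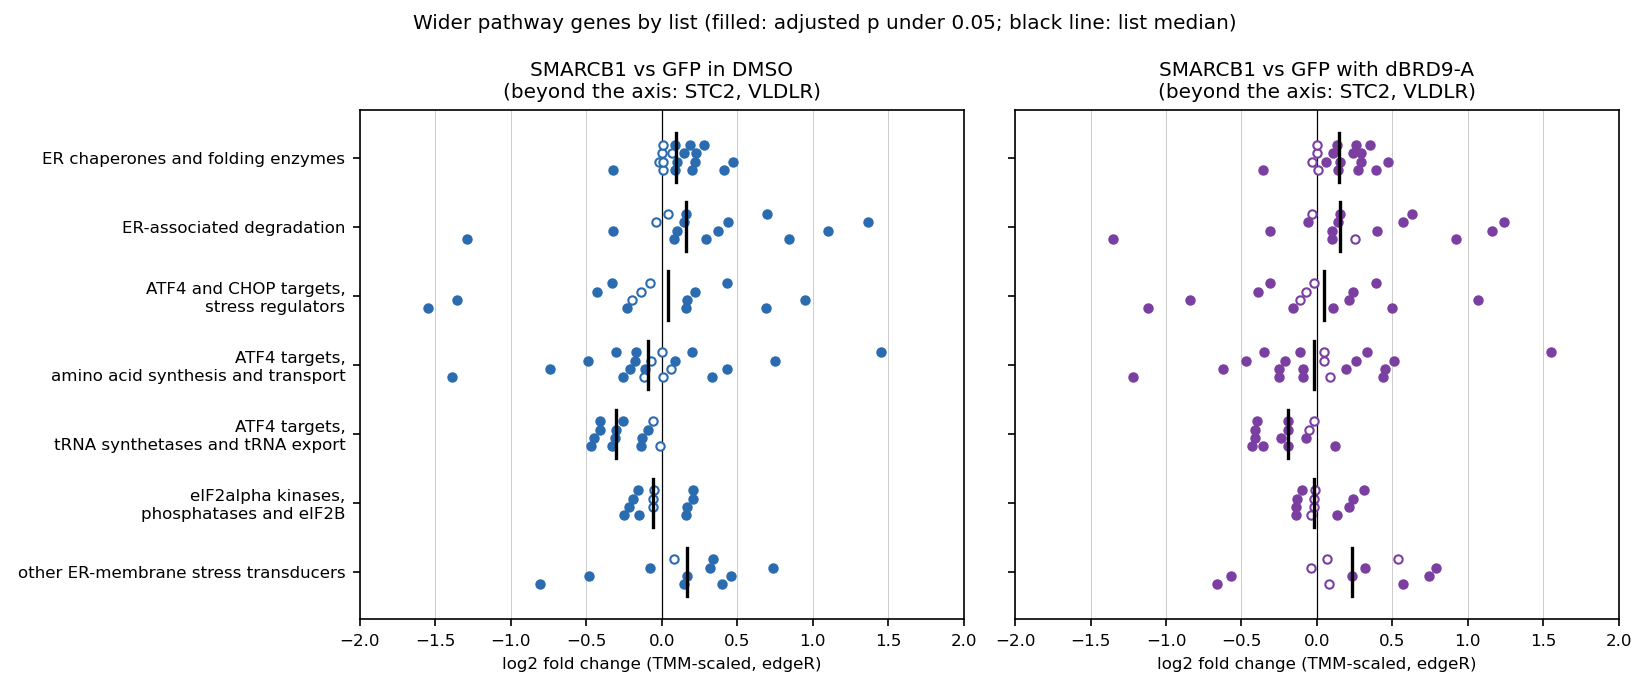
Log2 fold change (x axis, edgeR on TMM-scaled counts) of each tested gene of 7 lists with SMARCB1 in DMSO (left) and with dBRD9-A (right), filled where the adjusted p is under 0.05, with the list median as a black line and STC2 and VLDLR beyond the axis. All 13 tRNA synthetase and export genes lie below 0 in DMSO, and most chaperone and degradation genes lie above it.

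dBRD9-A in GFP cells gave 21 calls among the 103 further genes (20.4%), 5 higher and 16 lower, where 15.9% of all genes were called, 7.43% higher and 8.47% lower. This count fell to 12, 13 and 13 without GFP replicate 1 or 3 in DMSO or GFP replicate 2 with dBRD9-A. The directions hold under TMM scaling only, as spike-in scaling gave 93 higher and 2 lower. Of the 18 chaperones, 6 were lower and 0 higher (all 18 higher under spike-in scaling), among them CANX, calnexin, which went from 1410 ± 11.2 to 1230 ± 10.3 CPM (-0.19 ± 0.02, edgeR adjusted p = 1.16e-05). NUPR1, a stress-induced chromatin protein, fell from 106 ± 6.94 to 64.4 ± 2.83 CPM (-0.72 ± 0.05, edgeR adjusted p = 1.1e-08). In SMARCB1 cells 2 were called (1.94%, beside 1.93% of all genes), both lower, DDIT4 at -0.28 ± 0.04 (edgeR adjusted p = 0.00151) and HSP90B1 at -0.1 ± 0.02 (edgeR adjusted p = 0.038).

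Genes with the motifs printed above were also counted over all tested genes, beside the shares of all genes called higher and lower given for the lists. Of 16 tested genes with an ERSE, HSPA5 and XBP1 among them, 10 were higher and 2 lower with SMARCB1 in DMSO (median log2 fold change 0.097, all genes -0.005), and 11 higher and 1 lower with dBRD9-A (median 0.156, all genes 0.009). Of 13 with an ERSE-II, HERPUD1 among them, 6 were higher and 3 lower in DMSO (median 0.064), and 4 higher and 4 lower with dBRD9-A (median -0.062). Of 282 with a CARE, ASNS and HERPUD1 among them, 117 were higher and 96 lower in DMSO (median -0.002), and 118 higher and 99 lower with dBRD9-A (median 0.043). Within the set and the 7 lists, 19 genes carry a CARE, and 10 of these were lower and 6 higher in DMSO (median -0.14). All 19 were already counted there, and most of the 10 lower ones are tRNA synthetase genes. Among the other CARE genes of the set and lists, more were higher than lower in DMSO. Of the 16 genes with an ERSE, 8 are in the set or these lists and were already counted there. In DMSO 6 of the 8 were higher and 1 lower, and with dBRD9-A 7 were higher and 1 lower. These motif counts were made under TMM scaling only. For SMARCB1 with dBRD9-A, spike-in scaling put HSPA5 at -0.16 and XBP1 at -0.15.

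The libraries also hold ERCC spike-ins, synthetic RNAs whose addition is not described in the sources used here. They made up 1.265 to 1.302% of the counts in GFP with DMSO, 0.96 to 1.06% in GFP with dBRD9-A, 1.08 to 1.21% in SMARCB1 with DMSO and 1.178 to 1.295% in SMARCB1 with dBRD9-A. Scaling libraries by them shifted all genes, with medians on the log2 scale of 0.17 and -0.32 for SMARCB1 in DMSO and with dBRD9-A, 0.36 and -0.14 for dBRD9-A in GFP and SMARCB1 cells, and -0.49 for the interaction. The share of higher genes among all calls went with it, from 51.4% to 72.6%, from 52% to 19.1%, from 46.7% to 98%, from 35.2% to 4.47% and from 56.5% to 0.586%, in the same order.

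For SMARCB1, the rise of EIF2AK3 (0.98 and 0.61) and ATF6 (0.76 and 0.41) and the fall of ATF4 (-0.4 and -0.99), DDIT3 (-0.4 and -0.86) and ASNS (-0.75 and -1.17) passed the edgeR test under spike-in scaling too, in DMSO and with dBRD9-A. The smaller changes did not all hold. HSPA5 was at 0.42 in DMSO but at -0.16 with dBRD9-A, XBP1 at 0.27 but -0.15, DNAJB9 at 0.22 but -0.1 (edgeR adjusted p = 0.215), and HERPUD1 at -0.01 (edgeR adjusted p = 0.926) but -0.56. The tRNA synthetase list had 5 lower and 1 higher in DMSO and 13 lower with dBRD9-A, and the chaperones 16 higher in DMSO but 10 lower with dBRD9-A. In DMSO the falls of CRELD2 and EIF2S1 lost their calls, at -0.15 (edgeR adjusted p = 0.0605) and -0.08 (0.333). In GFP cells all 10 genes were called higher with dBRD9-A under this scaling, at 0.19 to 0.44 beside the median of 0.36 over all genes, and for the interaction all 10 were called lower.

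**Figure D5:**
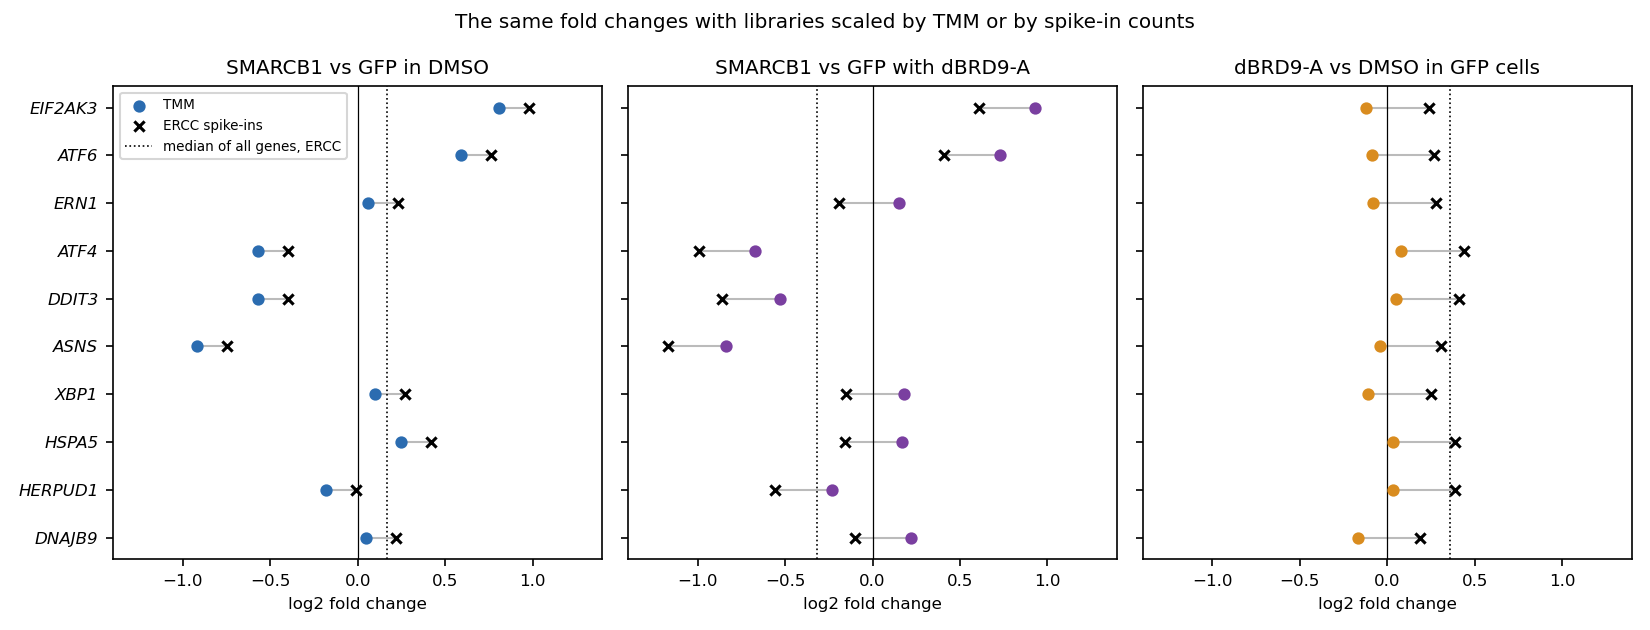
Log2 fold changes (x axis) of the 10 genes under TMM scaling (dots) and ERCC spike-in scaling (crosses) in 3 comparisons, with the median of all genes under spike-in scaling as a dotted line. EIF2AK3 and ATF6 stay above 0, and ATF4, DDIT3 and ASNS below 0, in both SMARCB1 comparisons, while HSPA5, XBP1, DNAJB9 and ERN1 cross 0 in the comparison with dBRD9-A.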

How the data were processed

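RNA of 12 G401 libraries was purified with a Qiagen RNeasy kit and sequenced from stranded poly(A) libraries, per the labels' protocols. The values are expected counts per gene that the authors deposited in 3 tables. The submitters' processing notes name STAR, RSEM 1.3.1, DESeq2 and the builds GRCh37 and hg19, with no role or order. The annotation and the strand setting are not given in the sources used here. The 3 tables share libraries, whose repeated columns were identical.

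Expected counts were rounded to whole numbers, and 40 ERCC rows (0.963 to 1.302% of a library's counts) took no part in library sizes or tests. Symbols were matched for 51996 of 57820 identifiers. Genes passing filterByExpr in edgeR 4.0.16 (R 4.3.3; minimum count 10) were fitted over all 12 libraries with TMM scaling (factors 0.9765 to 1.016), group as the term and the quasi-likelihood test, with Benjamini-Hochberg adjustment over 15750 genes and a threshold of 0.05. A count of 3 was the floor, 0.0513 to 0.0858 CPM, which covers counting error only. The procedure was tested on simulated data. Alternatives were the size factors and Wald test of DESeq2 1.42.0, spike-in scaling, no low-count filter, the libraries of a contrast alone, a replicate block, leaving out each library, and a 1.5-fold limit.

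The 10 genes and the 7 lists were chosen with earlier results of these data known. All 10 are described. From each list the text names the largest rise and fall per comparison among called genes with a mean of at least 50 counts and groups that do not overlap, taken in part here, and for the interaction the largest of either sign. Other genes are marked or are members of a count of 5 or fewer. Same-numbered replicates did not deviate together (correlations of at most 0.057), so the libraries were not fitted as pairs. This does not exclude that the numbers pair them. No 2 replicates agreed within counting noise (chi-square per degree of freedom 2.95 or more). Gene overlaps came from GENCODE release 29 and promoters from RefSeq.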

Additional observations from a re-analysis of the deposited data

Results flagged for a closer look

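The response to dBRD9-A differed between SMARCB1 and GFP cells for 4 of the 103 further pathway genes, by the edgeR interaction test over all genes, a share of 3.88% beside 3.8% of all genes called. NUPR1 fell from 106 ± 6.94 to 64.4 ± 2.83 CPM (SD, n = 3) in GFP cells and stood at 41.3 ± 0.689 and 35.9 ± 2.22 in SMARCB1 cells with DMSO and dBRD9-A, a log2 difference of 0.51 ± 0.07 (edgeR adjusted p = 0.00028). DDIT4 fell from 123 ± 6.15 to 74.8 ± 2.47 CPM in GFP cells, while SMARCB1 cells went from 41.8 ± 1.93 to 34.4 ± 0.442, a difference of 0.43 ± 0.06 (edgeR adjusted p = 0.000241). SLC38A2, an amino acid transporter, rose from 204 ± 2.39 to 225 ± 8.25 CPM in GFP cells and was at 343 ± 2.96 and 321 ± 11.6 in SMARCB1 cells, a difference of -0.24 ± 0.04 (edgeR adjusted p = 0.00335). DNAJB11, an ER co-chaperone, was at 89.6 ± 4.19 and 82.5 ± 1.9 CPM in GFP cells and at 94 ± 1.9 and 99.7 ± 2.85 in SMARCB1 cells, a difference of 0.21 ± 0.05 (edgeR adjusted p = 0.0237). DDIT4 and DNAJB11 were named after their values were seen. Under spike-in scaling the NUPR1 difference was 0.01 (edgeR adjusted p = 0.916), that of DDIT4 turned to -0.07 (0.564), that of DNAJB11 turned to -0.29 (0.00498) and that of SLC38A2 was -0.74, where the median of all genes was -0.49. The DNAJB11 call was lost when any of 7 single libraries was left out, with adjusted p of 0.0532 to 0.0953.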

How the results depend on the processing

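For the 10 genes, DESeq2 size factors in edgeR, the DESeq2 Wald test, no low-count filter and the libraries of the contrast alone changed no call, and neither did the replicate block (8, 9, 2, 0 and 0 calls for SMARCB1 in DMSO, SMARCB1 with dBRD9-A, dBRD9-A in GFP cells, dBRD9-A in SMARCB1 cells and the interaction). Over all genes the block gave 10113, 9812, 2233, 254 and 529 calls beside 10245, 9975, 2504, 304 and 598. In the same order, leaving out single libraries gave 8 to 8, 9 to 9, 1 to 2, 0 to 0 and 0 to 2 calls of 10, and 77 to 82, 75 to 85, 12 to 24, 1 to 3 and 3 to 8 of the 103 further genes. The 1.5-fold limit left 3, 4, 0, 0 and 0 of the 10, and 17, 16, 2, 0 and 0 of the 103. In SMARCB1 cells the 2 calls for dBRD9-A among the 103 became 4 in DESeq2, 1 with the contrast's libraries alone and 1 with the replicate block, and the 4 interaction calls became 8 in DESeq2.

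Spike-in scaling called 10 of the 10 for dBRD9-A in GFP cells and 10 for the interaction. Of the 103, it called 95 for dBRD9-A in GFP cells, 93 higher and 2 lower. It called 10 of them for dBRD9-A in SMARCB1 cells and 93 for the interaction, all lower. It turned these log2 values among the named genes called under either scaling: with SMARCB1 and dBRD9-A, HSPA5 -0.16, XBP1 -0.15, DNAJB9 -0.1, WARS1 -0.21, EIF2AK4 -0.02 and BRD9 -0.12. For dBRD9-A in GFP cells they were ATF6 0.27, XBP1 0.25, ERN1 0.28, EIF2AK3 0.24, DNAJB9 0.19, ASNS 0.31, WARS1 0.17, EIF2AK4 0.27 and CANX 0.16. For the interaction they were DDIT3 -0.46, ATF6 -0.35, XBP1 -0.42, ERN1 -0.41, EIF2AK3 -0.37, DNAJB9 -0.32, ASNS -0.41, DDIT4 -0.07 and DNAJB11 -0.29. Called under neither scaling, ERN1 turned to -0.19 with SMARCB1 and dBRD9-A, and for dBRD9-A in SMARCB1 cells DDIT3 to -0.05, ATF6 to -0.08, ERN1 and EIF2AK3 to -0.13 and ASNS to -0.1. In that last comparison DNAJB9, at 0 under TMM scaling, went to -0.14. How spike-ins were added is not given in the sources used here, so whether they track cell number or RNA mass cannot be told, and the cause was not tested. With 3 libraries a group, the 95% interval of ERN1 for SMARCB1 in DMSO ran from -0.17 to 0.29 under TMM scaling. Changes within that interval were not excluded for it.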
